A study of Mus musculus with 6 samples.

Results

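Complement components were examined in the inner enamel epithelium (IEE) of the mandibular first molar. The 8 genes *C1qa*, *C1qb*, *C1qc*, *C1ra*, *C3*, *C4b*, *Serping1* and *C3ar1* were taken by symbol from a table of 18152 genes, and all 8 were found. RNA-seq libraries were made at E18.5 from 2 genotypes, with 3 libraries each: *Kdf1 fl/fl*, called control here, and *K14-Cre;Kdf1 fl/fl*, called cKO. Both genotypes carry 2 floxed copies of *Kdf1* on a C57BL/6J background, and only the latter carries Cre recombinase under the keratin 14 promoter, which is active in epithelial cells and not in the cells of blood or mesenchyme. The labels describe the controls as WT and the cKO libraries as Kdf1 deletion. The IEE was cut out of frozen head sections by laser capture microdissection, so cells that lie against the epithelium can be included. How many embryos went into a library is not given in the sources used here.

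The complement system is a set of plasma and cell-surface proteins that tags particles for removal. In its classical branch, C1q binds a target and switches on the proteases C1r and C1s, which cleave C4 and C2. All branches meet at C3, whose fragment C3b coats the target and whose fragment C3a attracts leukocytes through the receptor C3aR. C1 inhibitor, encoded by *Serping1*, stops C1r and C1s. Liver cells make most of the C3 and C4 in plasma, while tissue macrophages are known for making C1q and fibroblasts for making C1r, C1s and C1 inhibitor.

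Library totals lay between 14713918 and 16675133 counts, and a count of 0 allowed up to 0.198 CPM, counting error only. CPM scale the counts of a library to its total, here after TMM, which evens out differences in composition between libraries. *Kdf1* itself had 44.3 to 52.7 CPM in the control libraries and 0 to 0.0629 CPM in the cKO libraries. Of the epithelial genes, *Krt5* had 3539 to 5790 CPM in control and 2209 to 3402 CPM in cKO mice. Replicate 1 of the cKO group stood apart, with the highest level of each of the 8 complement genes in any library. The log2 fold change of each member is therefore also given without it. In bulk tissue, fewer cells of a type and less RNA per cell cannot be told apart.

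The 3 chains of C1q, the recognition molecule of the classical branch, were higher on average in cKO mice. *C1qa* had 6.40, 12.7 and 6.13 CPM in control replicates 1, 2 and 3, and 36.9, 18.1 and 12.3 CPM in cKO replicates 1, 2 and 3. *C1qb* had 5.78, 15.7 and 5.50 CPM against 38.3, 23.4 and 16.7 CPM in the same order. *C1qc* had 5.59, 15.9 and 6.76 CPM against 36.1, 20.7 and 13.1 CPM. Replicate 2 was the highest control library for all 3 chains. It lay above cKO replicate 3 for *C1qa* and *C1qc* and below it for *C1qb*, so the groups overlapped for *C1qa* and *C1qc* and were separate for *C1qb*. The means were 8.40 ± 3.69 and 22.4 ± 12.9 CPM for *C1qa* (SD, n = 3 per group), 9.01 ± 5.84 and 26.1 ± 11.1 CPM for *C1qb*, and 9.43 ± 5.66 and 23.3 ± 11.8 CPM for *C1qc*. The log2 fold changes were 1.42 (SE 0.47), 1.53 (SE 0.49) and 1.30 (SE 0.50). Their adjusted p values were 0.134, 0.127 and 0.172 (edgeR quasi-likelihood F-test, Benjamini-Hochberg adjusted), so none of the chains passed the threshold. Without replicate 1 of the cKO group the log2 fold changes were 0.86, 1.16 and 0.85.

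The chains form one molecule together, and they stayed in nearly equal proportion in every library. Per transcript length, *C1qb* stood at 0.873 to 1.32 times the TPM (a scaled level that also corrects for length) of *C1qa*. *C1qc* stood at 0.897 to 1.30 times *C1qa*. In both ratios the groups overlapped.

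*C3ar1*, the receptor for C3a on myeloid cells, had another pattern over the libraries than the chains of C1q. It had 1.32, 2.91 and 1.90 CPM in control mice and 6.26, 1.70 and 1.38 CPM in cKO mice. Only cKO replicate 1 lay above the control range, and the other two lay inside it. The log2 fold change was 0.61 with a 95% interval from −0.89 to 2.11 (Benjamini-Hochberg adjusted p = 0.591, edgeR quasi-likelihood F-test). Without that library it turned to −0.39.

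*C1ra* encodes the protease C1r, the first enzyme of the classical branch. It had 4.71, 7.75 and 2.34 CPM in control replicates 1, 2 and 3 and 69.5, 19.3 and 8.64 CPM in cKO replicates 1, 2 and 3. Every cKO library lay above every control library, the closest pair being 7.75 and 8.64 CPM. The log2 fold change was 2.72 (SE 0.81), with means of 4.93 ± 2.71 and 32.5 ± 32.5 CPM (SD, n = 3 per group). Reads could be shared with the near copy *C1rb*, which had 1 count in all libraries together. Without cKO replicate 1 the log2 fold change was 1.51.

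*Serping1* encodes C1 inhibitor and had the highest mean CPM of the members in both groups. Its levels were 7.66, 14.7 and 6.13 CPM in control mice and 109, 41.7 and 25.4 CPM in cKO mice. The groups did not overlap, and the lowest cKO library was 25.4 CPM against 14.7 CPM in the highest control library. The means were 9.48 ± 4.55 and 58.8 ± 44.4 CPM (SD, n = 3 per group) and the log2 fold change was 2.63 (SE 0.60). Without cKO replicate 1 it was 1.83.

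*C4b* encodes C4, the substrate of C1s. It had 0.440, 0.727 and 0.253 CPM in control mice and 24.0, 2.27 and 3.69 CPM in cKO mice. The groups did not overlap, but replicate 1 of the cKO group was far above the other two. These values rest on 23 counts in the control libraries together and 471 in the cKO libraries, a ratio of 21.1 with an exact Clopper-Pearson 95% interval from 13.9 to 33.6 that covers counting error only. The log2 fold change was 4.37 (SE 1.04), and 2.64 without cKO replicate 1. The value of *C4b* is uncertain, since its near copy *C4a* can take some of its reads. *C4a* was listed at 0.485 to 1.07 CPM in control and 0.566 to 1.84 CPM in cKO mice, with overlapping groups.

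*C3*, where the branches meet, was the least abundant member in the control libraries, at 0.126, 0.303 and 0.126 CPM. These are 2, 5 and 2 counts, so 2 of the 3 libraries lay under the limit of 3 counts. In cKO mice it had 5.32, 1.64 and 1.12 CPM, or 84, 26 and 17 counts. The groups did not overlap. Pooled by group, 127 against 9 counts gave a ratio of 14.5 with an exact Clopper-Pearson 95% interval from 7.42 to 32.5, counting error only. The log2 fold change was 3.80 (SE 0.78), and 2.85 without cKO replicate 1.

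**Figure D1:**
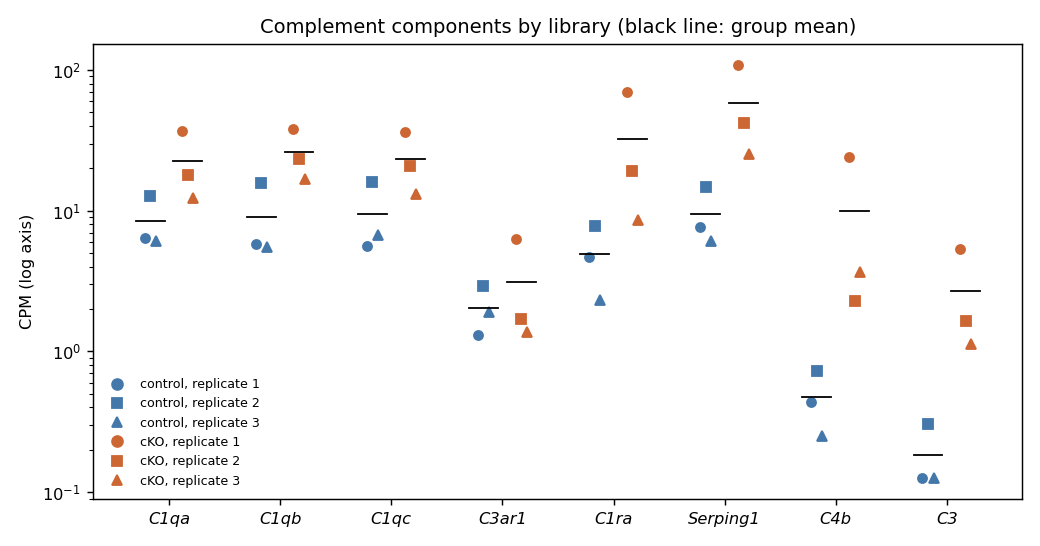
CPM of each complement component on a log axis, with 1 point per library (3 control libraries in blue, 3 cKO libraries in orange, shape by replicate number) and a black line at the group mean. The groups are separate for *C1qb*, *C1ra*, *Serping1*, *C4b* and *C3*, and overlap for *C1qa*, *C1qc* and *C3ar1*.

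The groups were compared over all 14131 genes that passed a filter on low counts, by edgeR quasi-likelihood F-tests with p values adjusted after Benjamini and Hochberg. A gene was called at an adjusted p of at most 0.05 if it also differed by 1 or more on the log2 scale. Both limits were taken over from the methods. None of the 8 members was called, while 0.432% of all genes tested were, and 0.142% were called higher in cKO mice. The adjusted p was 0.0674 for *C3*, 0.0745 for *Serping1*, 0.0808 for *C4b* and 0.114 for *C1ra* in the same edgeR test. At an unadjusted p of at most 0.05, 7 of the 8 were higher, *C3ar1* being the exception, against 13% of all genes tested. *C3* and *C4b* passed the filter on low counts only through the cKO group, so they had to differ, and counts over the members are no support for a shared change. The values of 5 members lay higher in every cKO library, which was so for 14.5% of all genes tested. All 8 log2 fold changes were above 0, with a median of 2.08, where the median of all genes tested was near 0 at −0.00.

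DESeq2 on the same counts called 6 members, all higher in cKO mice, where it called 5.05% of all genes tested higher. These were *C4b* (adjusted p = 3.84e-05), *Serping1* (5.35e-05), *C3* (0.000679), *C1ra* (0.00183), *C1qb* (0.0179) and *C1qa* (0.0257), each with DESeq2's Benjamini-Hochberg adjustment. *C1qc* had an adjusted p of 0.0607 and *C3ar1* 0.625 in the same DESeq2 test. The labels give replicate numbers but no pairing, so fits with the number as a block are alternatives only. In edgeR with the replicate number as a block, 4 members were called higher, against 4.16% of all genes. They were *C3* (adjusted p = 0.0222), *Serping1* (0.0333), *C4b* (0.0440) and *C1ra* (0.0480), while *C1qb*, *C1qa*, *C1qc* and *C3ar1* had 0.0677, 0.0927, 0.128 and 0.769 with the block. limma, on voom weights or on log2 TPM, called no member. With the block on replicates 2 and 3 alone, an alternative added after seeing the data, the same 4 were called, against 4.09% of all genes.

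Each library was also left out in turn. In edgeR, *C3* and *Serping1* were called without cKO replicate 3, where 2.29% of all genes were called higher, and no member was called without any of the other libraries. DESeq2 called *C3*, *C4b* and *Serping1* in 6 of 6 such fits and *C1ra* in 4. It called each chain of C1q in 2 and *C3ar1* in 0. It called 3 members without control replicate 1 (2.96% of all genes were called higher), 7 without control replicate 2 (6.58%) and 4 without control replicate 3 (2.24%). Without cKO replicate 1 it called 3 (2.42%), without cKO replicate 2 it called 4 (4.06%) and without cKO replicate 3 it called 7 (7.25%). The 3 members called without cKO replicate 1, the library that stood apart, were *C3*, *C4b* and *Serping1*. With all 6 libraries, *C3* and *C4b* passed the filter on low counts only through the cKO group. Repeated calls of these genes are therefore no support for a stable difference.

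**Figure D2:**
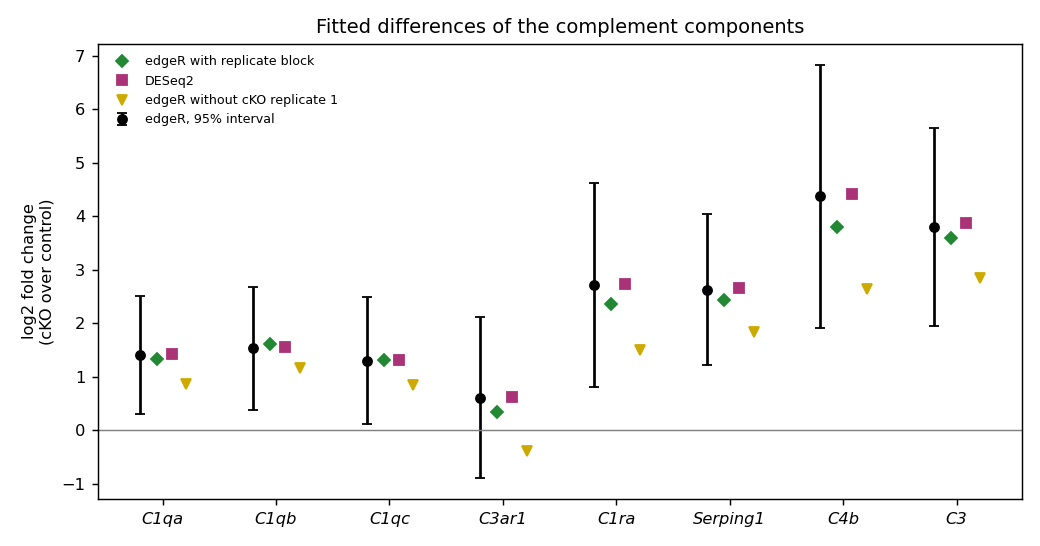
Log2 fold change of each complement component, cKO over control, with the 95% interval of edgeR's fit (black), and the values from edgeR with the replicate block (green), DESeq2 (purple) and edgeR without cKO replicate 1 (yellow). Without that library each value is lower than with it, and *C3ar1* falls below 0.

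Levels were set against each other per transcript length. In the control libraries the chains of C1q had 10.5 to 36.9 TPM and *Serping1* 6.25 to 17.1 TPM, and these 4 genes were not separated. *C1ra* followed with 1.5 to 5.66 TPM, *C3ar1* with 0.560 to 1.31 TPM, *C4b* with 0.0800 to 0.250 TPM and *C3* with 0.0400 to 0.130 TPM. The ranges of *C4b* and *C3* overlapped, and each of the other steps after *Serping1* left a gap between the ranges. In the cKO libraries *Serping1* had 27.3, 47.1 and 134 TPM, *C1qb* 33.3, 49.6 and 87.7 TPM, and *C1ra* 5.81, 13.7 and 53.4 TPM, from the lowest library to the highest. *Serping1* thus reached the level of C1q there, and *C4b* (0.770 to 8.97 TPM), *C3* (0.560 to 2.34 TPM) and *C3ar1* (0.580 to 2.98 TPM) were the lowest and overlapped.

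Patterns over the 6 libraries were compared by the log2 CPM of each gene minus its own mean, and by the root mean square difference between genes on that scale. The measure is a description over 6 libraries that share their groups. From the mean pattern of the C1q chains, *Serping1* was 0.565 away, *C3ar1* 0.648, *C1ra* 0.710, *C3* 0.809 and *C4b* 1.25. From *C3*, the nearest member was *Serping1* at 0.288, and from *C1ra* it was again *Serping1*, at 0.327. Among 13639 other genes with a mean of at least 1 CPM, those nearest to the C1q pattern were *Parp8* (0.0957), *Zcchc24* (0.113), *Enpp3* (0.134), *Il18* (0.134) and *Rtp4* (0.136). *S100b*, *Enpep*, *Iigp1*, *En1* and *Akap6* were nearest to *C3*, between 0.192 and 0.274. *Acan*, *Lsp1*, *Pde7b*, *Vcam1* and *P4ha3* were nearest to *C1ra*, between 0.250 and 0.284.

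**Figure D3:**
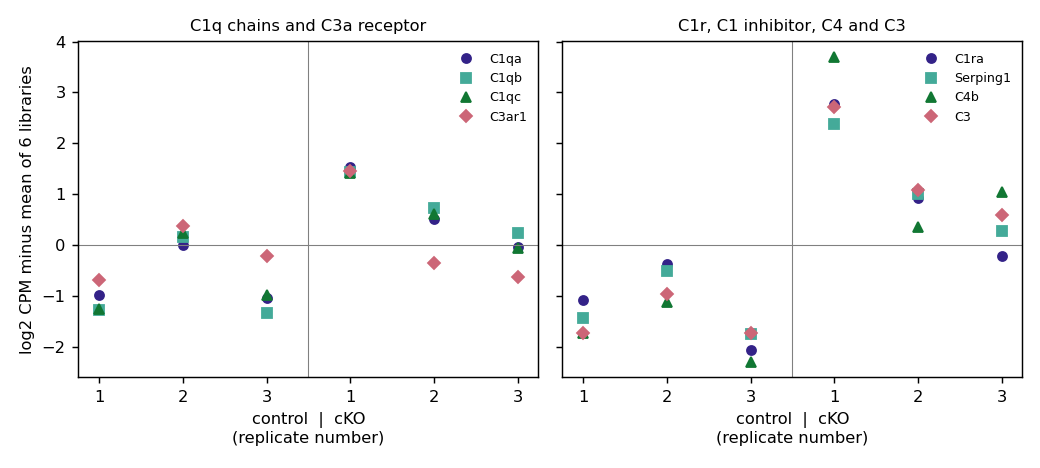
Log2 CPM of each complement component minus its mean over the 6 libraries, by library, for *C1qa*, *C1qb*, *C1qc* and *C3ar1* (left) and *C1ra*, *Serping1*, *C4b* and *C3* (right). In cKO replicates 2 and 3, *C3ar1* lies at −0.35 and −0.62 while *C1qb* lies at 0.73 and 0.25.

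Promoter sequences were available for 5 members, which are *C1qb*, *C1qc*, *C1ra*, *C3* and *C3ar1*, from RefSeq on build GRCm38.p6. Each covers 300 bases, from 250 before the start site of the gene to 50 after it. *C1qb* and *C1qc*, which lie next to each other in the genome with *C1qa*, are shown as neighbours whose levels kept nearly the same ratio, and *C1ra* and *C3* as members with larger log2 fold changes. They lie at chr4:136886151-136886450 (minus strand), chr4:136892865-136893164 (minus strand), chr6:124512371-124512670 (plus strand) and chr17:57228087-57228386 (minus strand). They are written from 5′ to 3′, and capitals mark matches on either strand to the core of the site of PU.1 (a myeloid factor), the interferon-stimulated response element, the interferon-gamma-activated site, the NF-kB site or the TATA box.
C1qb: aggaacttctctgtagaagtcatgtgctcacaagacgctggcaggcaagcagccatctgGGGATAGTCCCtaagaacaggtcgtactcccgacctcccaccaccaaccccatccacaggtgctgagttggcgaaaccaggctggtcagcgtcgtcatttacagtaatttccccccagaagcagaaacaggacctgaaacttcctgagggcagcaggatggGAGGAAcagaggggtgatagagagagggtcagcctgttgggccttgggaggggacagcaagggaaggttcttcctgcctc
C1qc: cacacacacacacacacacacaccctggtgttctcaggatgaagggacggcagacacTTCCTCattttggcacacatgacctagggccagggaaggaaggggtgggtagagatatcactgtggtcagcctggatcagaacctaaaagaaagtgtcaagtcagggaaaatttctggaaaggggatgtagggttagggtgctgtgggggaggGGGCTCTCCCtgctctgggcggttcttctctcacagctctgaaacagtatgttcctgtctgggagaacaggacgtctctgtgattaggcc
C1ra: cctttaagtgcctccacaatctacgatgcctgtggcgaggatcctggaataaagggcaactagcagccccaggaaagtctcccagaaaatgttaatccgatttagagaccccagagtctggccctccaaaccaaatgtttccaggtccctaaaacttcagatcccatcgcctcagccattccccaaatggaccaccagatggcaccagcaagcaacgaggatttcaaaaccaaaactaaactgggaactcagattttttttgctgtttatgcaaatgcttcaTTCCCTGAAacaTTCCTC
C3: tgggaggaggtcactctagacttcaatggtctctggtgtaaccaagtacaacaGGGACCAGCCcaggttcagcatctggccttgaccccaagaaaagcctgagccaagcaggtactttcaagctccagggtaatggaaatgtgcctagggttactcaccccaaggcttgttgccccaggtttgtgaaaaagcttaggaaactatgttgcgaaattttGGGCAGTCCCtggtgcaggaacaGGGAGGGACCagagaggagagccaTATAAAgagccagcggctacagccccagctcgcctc
The PU.1 core, GAGGAA, stood in *C1qb*, *C1qc* and *C1ra* (3 of 5 members), and in 28.3% of all 32851 promoters of this length. In *C1qb* it began 30 bases before the start site, in *C1qc* 193 bases before it on the opposite strand, and in *C1ra* at base 45 after it, also on the opposite strand. The NF-kB letters, GGGA and CC with any 4 bases between them, stood in *C1qb*, *C1qc* and *C3*, and in 20.7% of all promoters. In *C1qb* 2 matches overlap, 1 on each strand, and *C3* held 3 matches. The interferon-gamma letters, TTCNNNGAA, stood in *C1ra* alone of the 5 (8.30% of all promoters). The interferon-stimulated letters are GAAA repeated after any 2 bases, and stood in none of the 5 (3.44% of all promoters). The TATA box letters, TATAAA, stood in *C3* and *C3ar1* (13.6%). In *C3* they began at base 15 after the start site, and in *C3ar1* 235 bases before it. A match is a run of letters and not a measured binding site.

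The rest of the pathway was a list of 54 genes, of which 48 were in the table and 25 passed the filter on low counts. Of these 25, 6 passed it only through the cKO group, which were *C1s2*, *C1rl*, *C2*, *C8g*, *Cfhr2* and *C5ar1*. Neither the values of these 6 nor counts that include them are support for a change. None of the 25 was called in edgeR after Benjamini-Hochberg adjustment. At an unadjusted p of at most 0.05, 10 were higher and 2 lower, against 13% and 11.6% of all genes tested. limma called none of them. The median log2 fold change was 0.76 and 22 were above 0. The median was 0.56 without cKO replicate 1. DESeq2 called 3 higher (*C1s1*, *Cfp* and *Itgam*), where it called 5.05% of all genes higher. In edgeR with the replicate block 1 was called higher (*C1s1*) and 2 lower (*Clu* and *Cd55*). The block called 4.16% of all genes higher and 1.92% lower.

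In the classical branch, *C1s1* encodes C1s, the partner of C1r. It had 5.09, 5.75 and 3.66 CPM in control mice and 73.0, 18.8 and 9.49 CPM in cKO mice, with no overlap. Its log2 fold change was 2.80 (SE 0.74), and its Benjamini-Hochberg adjusted p values were 0.0905 (edgeR), 0.0474 (edgeR with the block) and 0.000369 (DESeq2). *C2*, which encodes the other substrate of C1s, had a log2 fold change of 1.79 (SE 0.70) at 0.739 ± 0.463 and 2.58 ± 2.00 CPM (SD, n = 3 per group), with overlapping groups. *C1rl*, *C1s2* and *C4a* had log2 fold changes of 1.23, 0.69 and 0.57. Without cKO replicate 1 that of *C1s1* was 1.56, that of *C2* 0.99 and that of *C4a* 0.11.

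In the other branches few genes were measurable. Of 7 lectin branch genes in the table, 2 were tested, and the scavenger collectin *Colec12* had a log2 fold change of 0.76 (SE 0.32) at 147 ± 38.8 and 250 ± 94.8 CPM (SD, n = 3 per group). *Cfp*, the stabiliser of the alternative branch known as properdin, had 4.02, 5.27 and 4.04 CPM against 14.9, 10.8 and 6.13 CPM, with no overlap and a log2 fold change of 1.25 (SE 0.35). *Cfb*, the protease of that branch, had 1.61 (SE 0.86) and overlapping groups. The log2 fold changes of *Colec12*, *Cfp* and *Cfb* were 0.49, 0.94 and 0.63 without cKO replicate 1. Of 7 genes for C5 to C9, only *C8g* was tested, with 0.49 (SE 0.43), and these 7 genes summed to 0.569 to 1.78 CPM in any library.

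The regulators had log2 fold changes in both directions. *Cd55*, a cell-surface protein that breaks up the C3-cleaving enzyme, had 33.5, 26.3 and 35.5 CPM in control mice and 12.2, 11.7 and 24.5 CPM in cKO mice. Every cKO library was lower, as for 16.2% of all genes tested, and the log2 fold change was −0.98 (SE 0.31). *Clu*, the secreted regulator clusterin, had 258, 576 and 1665 CPM against 86.2, 149 and 284 CPM, a difference of −2.27 (SE 0.73) on the log2 scale. Its groups overlapped, since control replicate 1 lay below cKO replicate 3. With the replicate block the adjusted p was 0.00695 for *Clu* and 0.0295 for *Cd55* (edgeR, Benjamini-Hochberg), and it was 0.128 and 0.124 without it. Of the membrane regulators, *Cr1l*, *Cd59a* and *Cd46* had log2 fold changes of 0.10, 0.31 and 0.54. *Cfhr2* had 1.20 (SE 0.44) with no overlap, at 0.680 and 1.57 CPM on average, and 1.06 without cKO replicate 1. *Cfhr2* passed the filter on low counts only through the cKO group, so its separation is no support for a change. Of 11 regulators tested, 8 were above 0 and 3 below. At an unadjusted edgeR p of at most 0.05, 2 were higher and 2 lower, against 13% and 11.6% of all genes tested. *Cd55* stood at −0.79 and *Clu* at −1.93 without cKO replicate 1.

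Of 8 receptor genes, 4 were tested, and all 4 had log2 fold changes above 0. *C5ar1*, the receptor for C5a on myeloid cells, had 0.691, 0.909 and 0.632 CPM against 4.05, 1.26 and 1.45 CPM, with no overlap and a log2 fold change of 1.59 (SE 0.54). *C5ar1* passed the filter on low counts only through the cKO group, so its separation is no support for a change. *Itgam* and *Itgb2*, the chains of complement receptor 3, had 2.18 (SE 0.79) and 1.72 (SE 0.68), and for both the groups overlapped. Control replicate 2 had 3.69 and 2.79 CPM, above cKO replicate 3 with 2.77 and 2.24 CPM, while cKO replicate 1 had 20.3 and 11.2 CPM. *Cd93*, known from endothelium, had 0.97 (SE 0.31) with no overlap between the groups. Without cKO replicate 1 the values of *C5ar1*, *Itgam*, *Itgb2* and *Cd93* were 0.87, 1.04, 0.79 and 0.56 on the log2 scale.

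**Figure D4:**
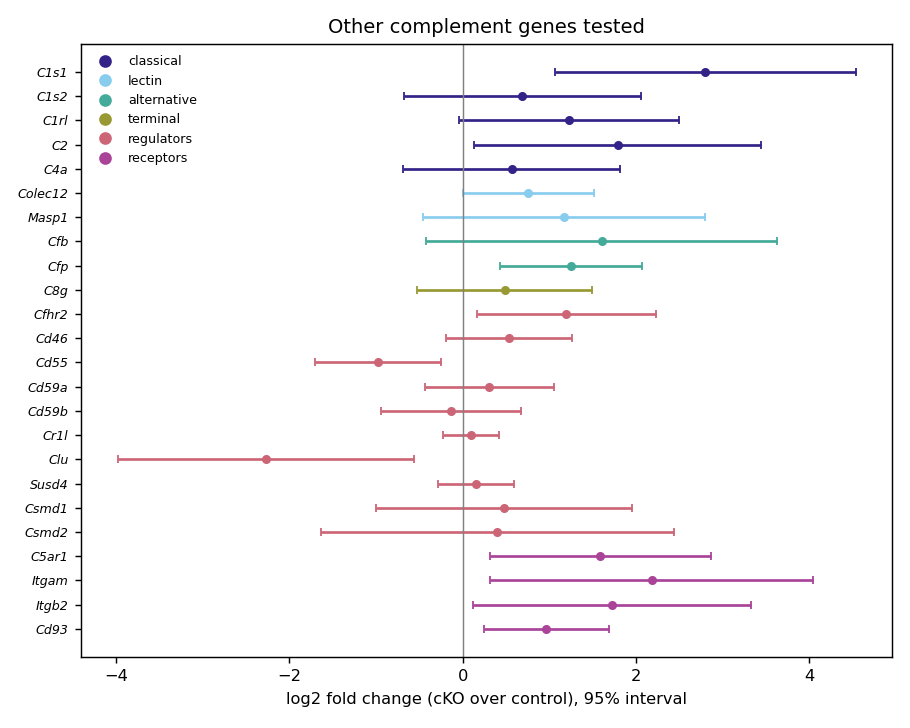
Log2 fold change of 24 of the 25 other complement genes tested, cKO over control, with the 95% interval of edgeR's fit, coloured by branch or role. *Cd55*, *Clu* and *Cd59b* are the 3 genes plotted below 0.

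Markers of the cells that make these proteins were set beside the members. All 18 macrophage genes were tested, 4 of them through the cKO group only. None was listed at 0 in any library, 17 had log2 fold changes above 0, and the median was 1.23, or 0.89 without cKO replicate 1. In edgeR none was called after Benjamini-Hochberg adjustment, while 9 were higher at an unadjusted p of at most 0.05. limma called none, DESeq2 called 7 higher and the replicate block 2. Of all genes tested, 13% were higher at that unadjusted p, DESeq2 called 5.05% higher and the block 4.16%. *Csf1r*, the receptor that macrophages depend on, had 6.28, 17.9 and 5.56 CPM in control mice and 68.8, 26.9 and 11.8 CPM in cKO mice. The sum of 17 of the 18 genes, a choice made after the levels had been seen, was 52.6, 130 and 62.4 CPM in control replicates 1, 2 and 3 and 360, 170 and 108 CPM in cKO replicates 1, 2 and 3. The C1q chains together amounted to 33.8%, 34.1% and 29.5% of that sum in control mice and 30.9%, 36.5% and 39.0% in cKO mice, and the groups overlapped.

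For *Serping1*, *C4b* and *C3* the proportion was higher in every cKO library. *Serping1* amounted to 9.82% to 14.6% of that sum in control mice and 23.5% to 30.4% in cKO mice. *C3* amounted to 0.202% to 0.239% and 0.960% to 1.48%, and *C4b* to 0.405% to 0.836% and 1.33% to 6.67%. For all 3 the groups were separate. *C3ar1* went the other way, with 2.24% to 3.04% in control and 0.997% to 1.74% in cKO mice, and *C1ra* overlapped. *C3* and *C4b* passed the filter on low counts only through the cKO group, so their separation here is no support for a change. How many of all genes would separate against this sum was not counted. These percentages were chosen after the values were seen and were not tested.

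Of the other lists, hepatocyte genes (*Alb* among them) summed to no more than 1.38 CPM in any library, and none of the 6 in the table passed the filter on low counts. The fibroblast and mesenchyme list summed to 4113 to 21763 CPM in control and 12331 to 13851 CPM in cKO mice, and collagen I genes made up most of it. Of 11 genes tested in that list 8 had log2 fold changes above 0, and the median over the 11 was 0.83. At an unadjusted edgeR p of at most 0.05, 7 were higher and 0 lower, against 13% and 11.6% of all genes tested. In every cKO library 5 were higher, as were 14.5% of all genes tested. In edgeR only *Twist1*, a mesenchymal transcription factor, was called higher in that list, at 11.6 and 54.5 CPM on average. *Pdgfrb*, a receptor of perivascular cells and fibroblasts, had 38.2, 56.2 and 28.7 CPM against 273, 151 and 69.1 CPM, while *Dcn*, a matrix proteoglycan, had 79.5 to 478 CPM against 188 to 310 CPM. The pan-leukocyte sum was 23.7 to 37.9 CPM in control and 28.2 to 95.3 CPM in cKO mice. The endothelium sum was 303 to 383 and 352 to 1025 CPM, the osteoclast sum 47.3 to 95 and 206 to 1266 CPM, and the neutrophil sum 4.80 to 6.78 and 34.0 to 93.3 CPM. The lymphocyte sum was 0.440 to 1.33 and 1.91 to 5.76 CPM. In each of these 5 sums the highest library was cKO replicate 1, as it was for the complement members. Other lists did not share this. The erythroid sum was 831 to 1302 CPM in control and 799 to 1281 CPM in cKO mice, highest in control replicate 3. The dental papilla and odontoblast sum was 1382 to 4495 and 1021 to 1596 CPM, lowest in cKO replicate 1. Of 8 neutrophil genes tested, 5 were called higher in edgeR (*S100a8*, *S100a9*, *Ngp*, *Ltf* and *Lcn2*), with log2 fold changes of 3.20 to 4.01. That fit called 0.142% of all genes higher. The filter on low counts had its cutoff at 0.627 CPM. In control mice *S100a8* had 0.569 to 0.691 CPM, *Ngp* 0.606 to 1.33, *Ltf* 0.121 to 0.379 and *Lcn2* 0.190 to 0.502 CPM. These genes passed the filter only through the cKO group, so their calls are no support for a change. *S100a9* passed it in both groups.

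The dental epithelium sum was 12972 to 28572 CPM in control mice and 5838 to 9933 CPM in cKO mice, and *Cdh1*, the epithelial cadherin, was called lower in edgeR, where 0.29% of all genes were. In edgeR the calls of *Cdh1*, *Twist1* and the 5 neutrophil genes were all lost when any library other than cKO replicate 3 was left out, and limma-voom made none of them, while DESeq2 and the replicate block made all of them. The calls in the other marker lists were 0 in edgeR. The part of these lists in the levels of the complement genes was not tested.

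**Figure D5:**
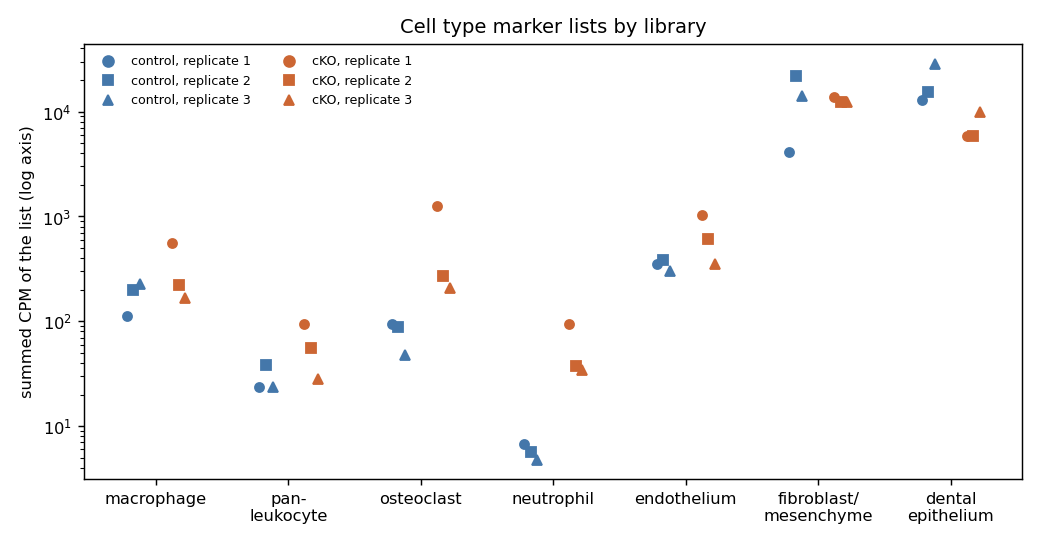
Summed CPM of 7 cell type marker lists on a log axis, with 1 point per library (3 control libraries in blue, 3 cKO libraries in orange, shape by replicate number). The osteoclast and neutrophil sums are higher and the dental epithelium sum lower in every cKO library, and the other sums shown overlap (the macrophage sum is over all 18 genes).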

How the data were processed

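The table used holds estimated counts, FPKM and TPM for each gene. Estimated counts were deposited without normalisation, and 10.9% to 11.5% of values per library had decimals and were rounded. The deposited TPM values were scaled by the authors for length and library. The deposited FPKM values were not used. The submitters' processing notes list BWA 0.7.12, Picard 2.6.0 and StringTie without roles, and the genome build and strand setting are not given in the sources used here.

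In R 4.3.3, edgeR 4.0.16 was run with filterByExpr, TMM and robust quasi-likelihood fits without a block, and p values were two-sided. DESeq2 1.42.0, limma 3.58.1, other scalings and filters, a replicate block and the omission of each library were alternatives. The leave-one-out fits of DESeq2 and the block on pairs 2 and 3 were chosen after seeing the data. Libraries that share a replicate number deviated together from their groups, with correlations of 0.135, 0.324 and 0.499. Pairs with different numbers had −0.41 to 0.144, the highest being control 2 with cKO 1. The numbers were read as pairs by the rule that each same-number correlation exceeds 0.1, at most a hint from the data. Control 2 with cKO 1 also exceeded 0.1 and lay above the same-number value of 0.135. The rule thus does not tell pairs from other combinations, and the labels give no pairing. The labels call the replicates biological. Within a group, chi-square per degree of freedom between libraries was 34.3 to 73.3, so no library was a repeat of another.

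All members were named. In each other complement list up to 5 genes, those called or with the lowest p, and in each marker list up to 4 with the highest mean CPM were to be named. The 5 genes nearest to the C1q, *C3* and *C1ra* patterns were also to be named. *C1rb*, *Cd59a*, *Cd59b*, *Cr1l*, *Pdgfrb*, *Dcn*, *Alb*, *Twist1*, *Cdh1* and *Ltf* fall outside this rule and were named after their values were seen. Some results on single genes are not reported here. The members and lists were chosen with earlier results of these data known.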

Additional observations from a re-analysis of the deposited data

How the results depend on the processing

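Of the 8 members, *C1qa*, *C1qb*, *C1qc*, *C1ra*, *C3*, *C4b* and *Serping1* kept a positive log2 fold change in every alternative run. *C3ar1* ranged from −0.39 to 0.98 with 1 library left out in edgeR, and turned to −0.39 without cKO replicate 1 in edgeR, −0.40 without it in DESeq2 and −0.62 with the replicate block on pairs 2 and 3. Where edgeR called 0 members, DESeq2 called 6, the replicate block 4 and the block on pairs 2 and 3 also 4. Leaving out 1 library gave 0 to 2 members in edgeR, the 2 being *C3* and *Serping1* without cKO replicate 3. In DESeq2 it gave 3 without control replicate 1, 7 without control replicate 2, 4 without control replicate 3, and 3, 4 and 7 without cKO replicates 1, 2 and 3. The 25 other complement genes had 0 calls in edgeR, 3 in DESeq2, 3 with the replicate block and 0 to 4 with 1 library left out, the 4 without cKO replicate 3, where 27 such genes were tested. The 18 macrophage genes had 0, 7, 2 and 0 to 1. Over the whole table, 61 genes were called in edgeR (20 higher, 41 lower), 980 in DESeq2 (714 higher, 266 lower), 860 with the replicate block (588 higher, 272 lower) and 1 to 465 with 1 library left out, the 465 (329 higher, 136 lower) without cKO replicate 3. Other counts were 7 with DESeq2's size factors (1 higher, 6 lower), 9 with library size alone (2 higher, 7 lower), 103 without a filter on low counts, 6 with a filter of 10 counts in each library, 6 in limma-voom and 31 in limma on log2(TPM + 1). The cause of these shifts was not tested. *C3* and *C4b* were removed by the filter that asks for 10 counts in every library, and limma on log2(TPM + 1) put them at 0.91 and 1.55. With 2 to 5 counts of *C3* per control library, its level there is close to the limit of detection.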
